A study of Bos taurus with 12 samples.

Results

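CXCL5 and CXCL8 are ELR chemokines, secreted proteins that attract neutrophils, and ICAM1 is the adhesion molecule to which neutrophils bind on the vessel wall and on epithelial cells. The genes were followed in rumen papillae, finger-like folds of the forestomach lining through which the acids of fermentation are taken up. Every probe set whose only gene symbol in the array annotation was CXCL5, CXCL8 or ICAM1 was taken. Each of these genes had 1 probe set, so the members were 3 of the 24016 probe sets tested and 3 of the 9155 named genes. The genes were chosen by measured values, namely their differences between weeks on these same arrays, so those differences are given as a description without a test.

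Papillae of the ventral sac were taken from 4 dairy cows of the Holstein breed. At week 0 the cows ate a high forage diet, the control, and weeks 1 and 3 fell in a grain challenge, giving 12 Affymetrix arrays, 4 per week. All weeks came from the same cows, and no cow on forage throughout was among the samples, so diet and elapsed time cannot be told apart. The labels give no ages. Values are log2, and 0 marks each probe set's own median of the 12 arrays. They give differences between arrays and no level, so one gene cannot be ranked against another by amount, and whether the tissue's defining markers were present could not be checked.

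ELR chemokines carry a glutamate, leucine and arginine motif and act on neutrophils through the receptors CXCR1 and CXCR2. In humans and cattle, epithelial cells, macrophages and endothelial cells make them after exposure to bacterial products or to cytokines such as IL-1 and TNF, largely through the transcription factor NF-kB. ICAM1 is another NF-kB target and binds the leukocyte integrins LFA-1 and Mac-1. The rumen wall is a stratified squamous epithelium next to a dense microbial community, and grain feeding lowers the pH of the rumen contents.

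CXCL5 was higher at week 3 than at both earlier weeks in every cow. At week 0 its log2 values in cows 1 to 4 were -0.05, 0.02, -0.02 and -1.29. At week 1 they were 0.33, -0.51, -0.20 and -0.74. At week 3 they were 1.39, 2.31, 1.68 and 0.36. Cow 4 was the lowest of the 4 cows at every week, and its week 3 value was the lowest of that week but still above all 8 arrays of the earlier weeks. The 4 week 3 arrays thus did not overlap with the 8 others, a pattern that 51 of the 24016 probe sets (0.212%) had in this direction. The margin was narrow, 0.356 in cow 4 at week 3 against 0.334 in cow 1 at week 1. Subtracting the medians of these arrays, -0.025 and -0.051, reverses that order, so the separation depends on the scaling.

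The weekly means of CXCL5 were -0.33 ± 0.64, -0.28 ± 0.46 and 1.43 ± 0.82 (SD, n = 4). Week 3 exceeded week 0 by 1.77 on the log2 scale, which is 3.41-fold, with a standard error of 0.43 in the model. Within cows 1 to 4 that difference was 1.43, 2.29, 1.70 and 1.65, with an SD of 0.37, smaller than the SD among the arrays of any week. Week 3 exceeded week 1 by 1.71, with all 4 cows in that direction. Weeks 0 and 1 differed by 0.06, with 2 cows higher and 2 lower, and did not differ beyond their spread.

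CXCL8, the interleukin-8 gene, was also higher at week 3 in every cow, with a wider spread. Its log2 values at week 0 in cows 1 to 4 were -0.71, -0.37, 1.07 and -1.05. At week 1 they were -0.15, -3.25, -0.89 and 0.15. At week 3 they were 0.57, 2.57, 2.93 and 0.66. The week 3 and week 0 arrays overlapped because cow 3 was already at 1.07 on forage, above cows 1 and 4 at week 3. The week 3 and week 1 arrays did not overlap, and the lowest of the 12 values was that of cow 2 at week 1.

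The weekly means of CXCL8 were -0.26 ± 0.93, -1.03 ± 1.54 and 1.68 ± 1.24 (SD, n = 4). Week 3 exceeded week 0 by 1.95 on the log2 scale, or 3.85-fold, with a model standard error of 0.83, and by 1.27, 2.94, 1.86 and 1.71 within cows 1 to 4. Against week 1 the difference was 2.72, or 6.58-fold. It was 5.82 and 3.82 in cows 2 and 3 but 0.71 and 0.51 in cows 1 and 4. From week 0 to week 1 CXCL8 was lower in cows 2 and 3, by -2.87 and -1.97, and higher in cows 1 and 4, by 0.56 and 1.19. The mean difference of -0.77 between those weeks lies within the SD of the differences within cows, 1.96.

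ICAM1 differed from the chemokines in timing and in size. Its log2 values at week 0 in cows 1 to 4 were -0.39, -0.51, 0.01 and -0.93. At week 1 they were -0.07, 0.39, 0.23 and 0.06. At week 3 they were 0.10, -0.05, 0.08 and -0.01. Cow 3 on forage stood within the range of both grain weeks, so week 0 overlapped with each of them, while the other 3 cows were lower on forage than any cow on grain.

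The weekly means of ICAM1 were -0.45 ± 0.39, 0.15 ± 0.20 and 0.03 ± 0.08 (SD, n = 4). Week 1 exceeded week 0 by 0.61, or 1.52-fold, with a model standard error of 0.17 and differences of 0.32, 0.90, 0.21 and 0.99 within cows 1 to 4. Week 3 exceeded week 0 by 0.48, or 1.40-fold, and by only 0.07 in cow 3. Between weeks 1 and 3 ICAM1 differed by -0.12, with 1 of 4 cows higher at week 3, which is within the spread. The comparisons with week 0 share the week 0 arrays, and those of week 3 share the week 3 arrays, so they are not independent of each other.

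**Figure D1:**
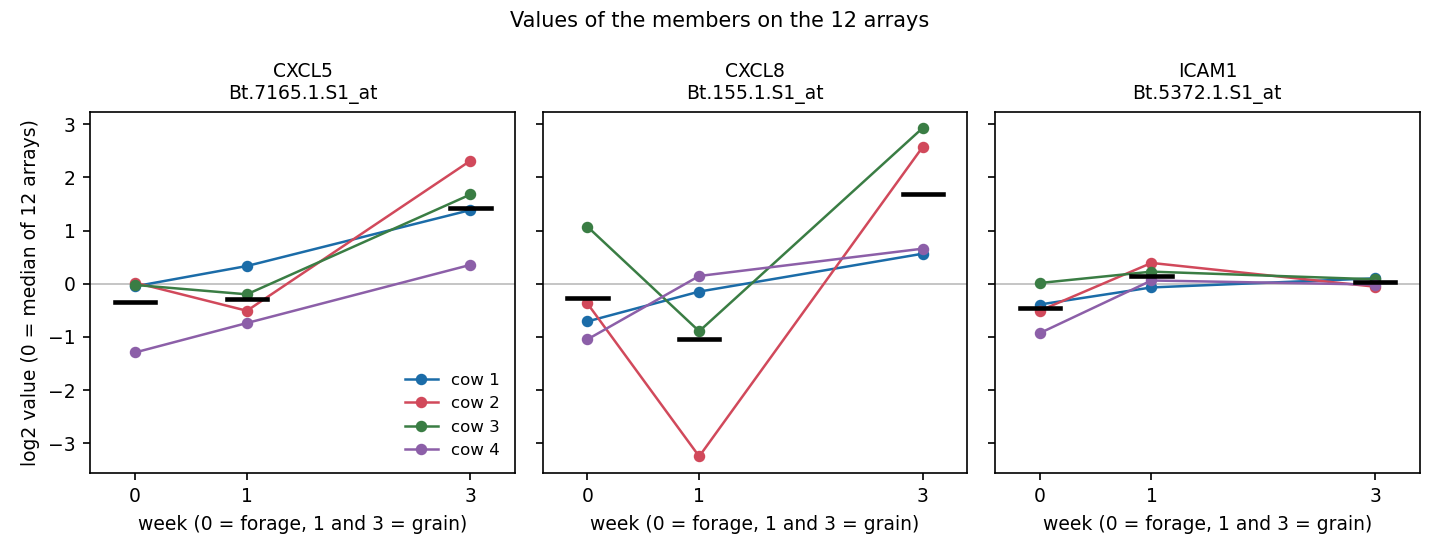
Log2 values of CXCL5, CXCL8 and ICAM1 (vertical axis, 0 is the gene's median over 12 arrays) at weeks 0, 1 and 3 (horizontal axis). Each line is 1 cow and each black bar is the mean of 4 cows. CXCL5 means run from -0.33 and -0.28 to 1.43, CXCL8 means from -0.26 and -1.03 to 1.68, and ICAM1 means from -0.45 to 0.15 and 0.03.

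Set against the whole array, these differences were among the larger ones for the chemokines. The genes were chosen by such differences, so high ranks follow in part from that choice. By the size of the week 3 minus week 0 difference CXCL8 ranked 2 and CXCL5 ranked 5 from the highest of 9155 genes, against a median of 0.02 over all genes, and ICAM1 ranked 217. For week 3 minus week 1 CXCL8 ranked 2 and CXCL5 ranked 19. For week 1 minus week 0 ICAM1 ranked 68, CXCL5 ranked 2841 and CXCL8 ranked 9093. A difference of at least 1 between week 3 and week 0 in all 4 cows was found in 5 probe sets (0.0208% of those tested), and 3 of them were those of CXCL8, CXCL5 and the related chemokine CXCL2. The others were BPIFA2A, a gene of the BPI fold family of secreted proteins, and a probe set with no gene named.

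A common direction in 4 cows is by itself frequent on these arrays and nothing is read from it here. Week 3 was above week 0 in all 4 cows for 36.3% of all probe sets, and week 1 above week 0 for 6.91%. All 4 week 3 arrays were above all 4 week 0 arrays for 2.72%. Many probe sets hardly varied: 56.3% had a range under 0.5 over the 12 arrays, and the median range was 0.43. The differences between weeks made up 67.6% of the variance of CXCL5 over the 12 arrays, 52.2% of that of CXCL8 and 58.2% of that of ICAM1, against a median of 12.4% over all probe sets. The differences between cows made up 23.4%, 11.4% and 17.7%, against a median of 27.0%. As the genes were chosen by their week differences, large shares between weeks follow in part from that choice.

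The week comparisons over the whole array called few probe sets. With limma and Benjamini-Hochberg adjustment over 24016 probe sets, 0% were called at an adjusted p under 0.05 in each comparison of weeks. With the cow as a block, 2 probe sets (0.00833%) were called for week 1 against week 0 and 0% in both other comparisons. At an unadjusted p under 0.05, 3.28% were higher and 1.87% lower at week 1 than at week 0, 2.52% higher and 1.36% lower at week 3 than at week 0, and 2.47% higher and 2.41% lower at week 3 than at week 1. Blocking on the cow changed these shares to 4.39% and 3.22%, 3.93% and 2.19%, and 4.18% and 3.4%. Over all genes the median of week 3 minus week 0 was 0.02, so most genes read higher at week 3. That median was -0.002 after quantile normalization and 0.001 with array medians subtracted, so the shift belongs to the scaling of the arrays. Counts of higher genes below are to be read against that shift, and counts at an unadjusted p against the shares above. The shares rest partly on single arrays. Without week 1 of cow 1 the probe sets at an unadjusted p under 0.05 went from 1237 to 10340 for week 1 against week 0 and from 1172 to 4293 for week 3 against week 1, and from 933 to 1160 for week 3 against week 0. The mean of 18 hybridization controls, RNA spiked in before hybridization, was 0.49, 0.72 and 0.48 in week 0 of cow 1, week 0 of cow 2 and week 1 of cow 1, and -0.32 to 0.05 on the 9 other arrays. The 3' value minus the 5' value of 6 control transcripts, a measure of RNA integrity, was compared between weeks. Its means were 0.00 ± 0.09, -0.03 ± 0.07 and 0.06 ± 0.08 at weeks 0, 1 and 3 (SD, n = 4). As the values are centred per probe set, these means compare arrays only and do not show how intact the RNA was. Without the 3 arrays with high controls, 17.7%, 5.04% and 12.4% of the probe sets were at an unadjusted p under 0.05 for weeks 1 against 0, 3 against 0 and 3 against 1. Without them, week 3 exceeded week 0 by 2.09 for CXCL5, 1.67 for CXCL8 and 0.49 for ICAM1. These values compare all cows at week 3 with cows 3 and 4 alone on forage, so differences between cows enter. With the cow as a block and without the 3 arrays they were 1.90, 2.39 and 0.44.

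Of the other ELR chemokines, GRO1 (synonym CXCL1) and CXCL2 were higher at week 3 than at week 0 in every cow, and CXCL3 was flat. All attract neutrophils in the species where they were studied. For CXCL2 the log2 values at week 0 in cows 1 to 4 were -0.55, -0.10, 0.32 and -1.66. At week 1 they were 0.55, -2.37, -1.49 and -0.19. At week 3 they were 1.05, 1.53, 1.89 and 0.10. Cow 3 was the highest cow at week 0 and at week 3, cow 4 was the lowest at both, and cows 2 and 3 were low at week 1, as they were for CXCL8.

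Week 3 exceeded week 0 for CXCL2 by 1.64 ± 0.66 (SE, n = 4 cows), which did not pass the adjusted test (limma, unadjusted p = 0.0321, adjusted p = 0.901). The difference within cows 1 to 4 was 1.59, 1.63, 1.57 and 1.76, an SD of 0.08, so the 4 cows shifted by nearly the same amount from different starting values. In a fit of the 8 arrays of these weeks alone with the cow as a block, chosen after seeing the data, limma gave a standard error of 0.04, an unadjusted p of 2.08e-06 and an adjusted p of 0.0500432, which misses the threshold, and 0% of the probe sets were called. Over all 23 alternatives, that one included, the adjusted p ranged from this value to 1.0. At week 1 CXCL2 differed from week 0 by -0.38 ± 0.66, higher in 2 cows and lower in 2.

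GRO1 had 4 probe sets, and week 3 exceeded week 0 by 2.04 to 2.45 in each. Against week 1, 3 of the 4 probe sets were lower at week 3 in cow 1, by -1.65, -1.79 and -0.22, and 2 of them also in cow 4. On the most variable of them the log2 values of cows 1 to 4 were 1.51, -0.14, -0.66 and -0.63 at week 0. They were 2.74, 0.14, -0.31 and -1.66 at week 1. They were 2.74, 2.14, 4.24 and -0.40 at week 3. Cow 4 stayed low throughout, and the week 3 excess of 2.16 ± 1.09 (SE, n = 4 cows; limma, adjusted p = 0.901, and 0.668 with the cow as a block) came from 1.24, 2.28, 4.90 and 0.22 in cows 1 to 4.

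Another GRO1 probe set, the one with the largest week 3 minus week 0 difference, split the arrays sharply into high and low ones. Its week 3 and week 0 arrays overlapped because of cow 4. It lay between -0.16 and -0.08 on all 4 forage arrays. At week 1 it was 4.22 in cow 1 and between -0.05 and 0.06 in the other cows. At week 3 it was 2.56, 2.86, 4.08 and -0.12 in cows 1 to 4. This probe set was thus high in 1 cow at week 1 and in 3 cows at week 3, and at no time in cow 4. Cow 4 was not flat on every GRO1 probe set. On 1 of them it was at -0.75 at week 0 and 0.17 at week 3, a difference of 0.92. There all 4 week 3 arrays lay above all 4 week 0 arrays, as for 2.72% of all probe sets.

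CXCL3 ranged over only 0.21 across the 12 arrays, with a week 3 minus week 0 difference of 0.02 ± 0.04 (SE). A flat probe set on this scale can be a gene that did not change or a probe set that gave no signal, which these values cannot tell apart. GRO1, CXCL2 and CXCL3 are close copies of one another, so which of them a probe set read is uncertain. Of the 6 ELR chemokines listed beside the members, these 3 were measured. No probe set named CXCL6, PPBP or CXCL1 under that symbol.

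**Figure D2:**
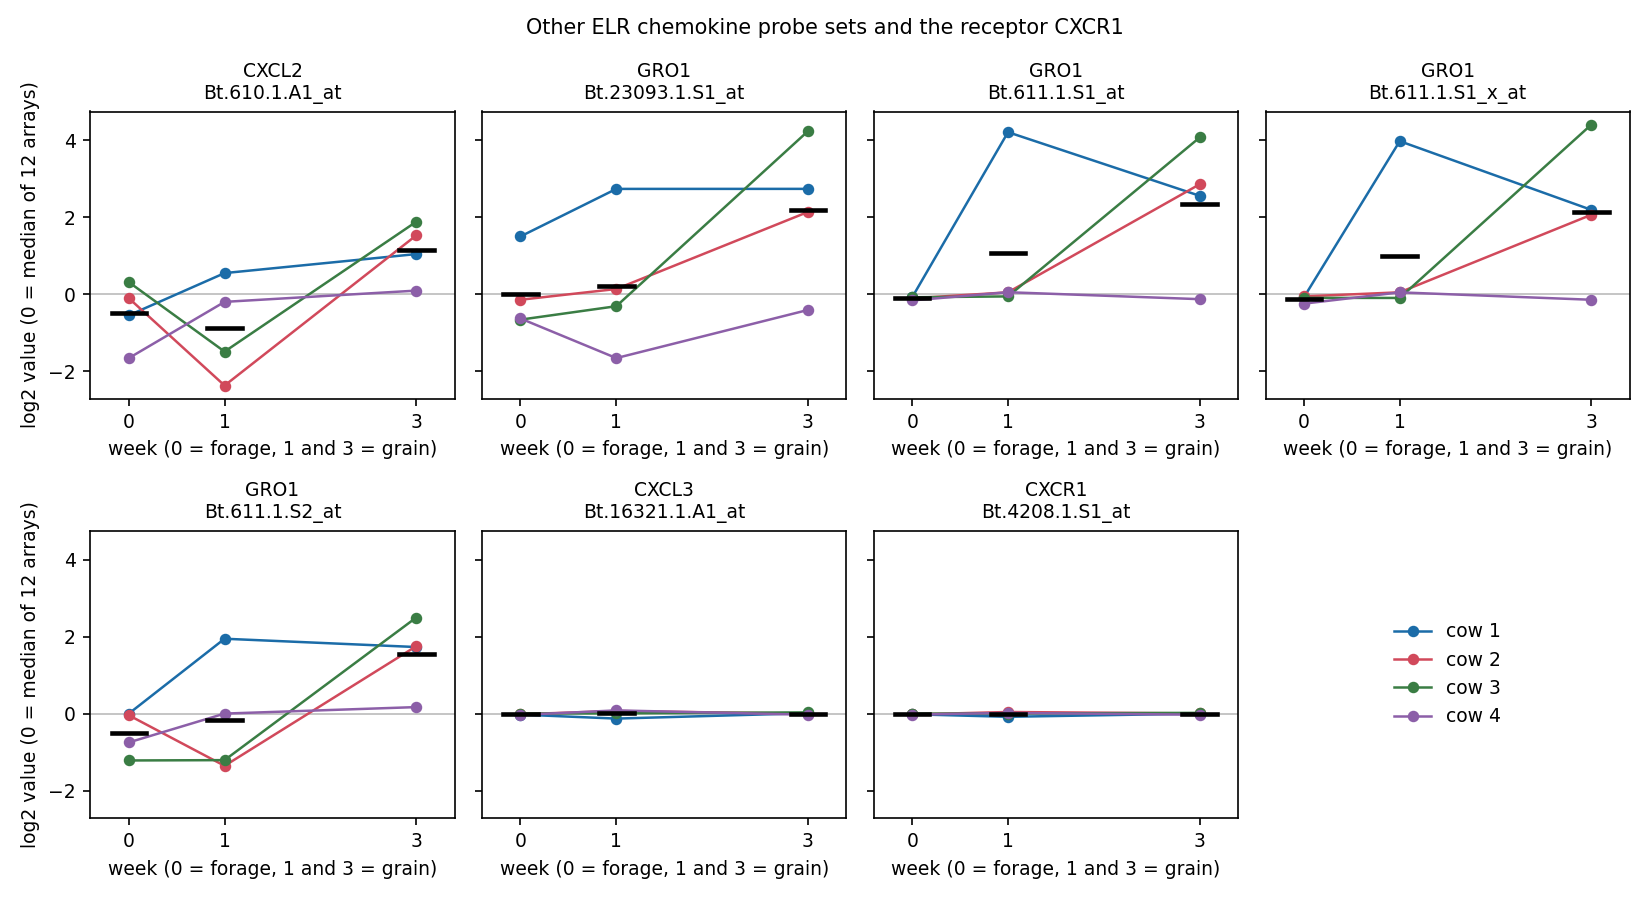
Log2 values (vertical axis, 0 is the median over 12 arrays) at weeks 0, 1 and 3 for the probe set of CXCL2, the 4 of GRO1, that of CXCL3 and that of the receptor CXCR1. Lines are cows and black bars are means of 4 cows. CXCL2 and the GRO1 probe sets are highest on average at week 3, cow 4 stays between -0.16 and 0.06 on the GRO1 probe set of the third panel, and CXCL3 and CXCR1 are flat.

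The genes lie close together in the genome. In the gene order of the ARS-UCD2.0 assembly, CXCL8 and CXCL5 are separated by 1 uncharacterized gene and are followed by PPBP, PF4, CXCL2, CXCL3 and GRO1. Between the high genes lie flat ones. PF4, a platelet chemokine without the ELR motif, ranged over 0.28 and differed by 0.04 between weeks 3 and 0, and CXCL3 was flat as above. ICAM1 lies on another chromosome.

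Receptors and adhesion partners were read next. CXCR1, the neutrophil receptor of CXCL8, and ACKR1, which carries chemokines across the vessel wall, ranged over 0.12 and 0.14 across the 12 arrays and each differed by 0.02 between weeks 3 and 0. No probe set named CXCR2. Both signs turn under the other scalings of the arrays. Of 11 partners of ICAM1 and other adhesion genes, 8 were measured, 5 were higher and 3 lower at week 3 than at week 0, and none passed at an unadjusted p under 0.05 in that comparison. Their median difference was 0.04, against 0.02 over all genes.

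ITGB2, the integrin chain shared by LFA-1 and Mac-1, was at 0.32 ± 0.44 (SE) and VCAM1, an endothelial adhesion molecule, at 0.41 ± 0.36. These genes varied among the arrays, with ranges of 1.63 and 1.88, while 5 of the 8 ranged over less than 0.5. The integrin chains ITGAL and ITGAM were at 0.06 ± 0.05 and 0.05 ± 0.06. The selectins SELE and SELP, which slow leukocytes on endothelium, were at 0.04 ± 0.06 and -0.01 ± 0.06. ICAM3 and PECAM1 were at -0.05 ± 0.10 and -0.04 ± 0.12. At week 1, where ICAM1 was highest, PECAM1, which leukocytes engage when they cross endothelium, was lower than at week 0 by -0.30 ± 0.12 in all 4 cows (limma, unadjusted p = 0.0329, adjusted p = 0.763). No other gene of this list passed at an unadjusted p under 0.05 in that comparison.

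The next list held cytokines known to induce these genes together with receptor chains and the antagonist IL1RN. Of 17 listed, 13 were measured, and 11 were higher and 2 lower at week 3 than on forage, the median being 0.05. After quantile normalization 8 were higher. In that comparison 2 were higher at an unadjusted p under 0.05, and 3 with the cow as a block, and none passed the adjusted test. IL1B and IL1A, the classical inducers, were at 0.28 ± 0.21 and 0.53 ± 0.33 (SE), TNF at 0.07 ± 0.05, IL6 at 0.05 ± 0.05 and IL17A at -0.01 ± 0.33, where 2 of its 3 probe sets had the opposite sign. The IL1B difference came from 1 array, cow 3 at week 3, at 1.07, while all its other arrays lay between -0.05 and 0.05. The 2 genes past the unadjusted threshold were IL1RAP, the accessory chain of the IL-1 receptor, at 0.36 ± 0.09, with 1 of its 3 probe sets opposite, and IL1RN, the secreted antagonist of IL-1, at 0.26 ± 0.08. With the block IL33, an epithelial alarmin, joined them at 0.80, with a standard error of 0.24, against 0.38 without the block. These were named after their values were seen.

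Of 24 genes of NF-kB and Toll-like receptor signalling 20 were measured. At week 3 against week 0, 17 were higher and 3 lower, with a median of 0.10 against 0.02 over all genes, and 14 were higher after quantile normalization. In that comparison 3 were higher at an unadjusted p under 0.05 and none lower, also with the cow as a block, and none passed the adjusted test. NFKB1 and RELA, subunits of NF-kB, were at 0.20 ± 0.24 and 0.01 ± 0.11 (SE), NFKB2 at 0.13 ± 0.14 and NFKBIA, the inhibitor that NF-kB itself induces, at 0.03 ± 0.26. NFKBIZ, an inducible nuclear cofactor of NF-kB, was at 0.39 ± 0.15 (limma, unadjusted p = 0.0262, adjusted p = 0.901), higher in 4 of 4 cows.

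The other genes past the unadjusted threshold were CD14, which presents lipopolysaccharide to TLR4, at 1.10 ± 0.46, and TLR4 itself at 0.58 ± 0.23. They were named after their values were seen. Between weeks 1 and 3 19 of the 20 genes were higher at week 3. Their median was 0.20 against -0.01 over all genes, and 5 passed at an unadjusted p under 0.05, or 6 with the block. The 5 were NFKBIZ, CD14, TLR4, the adaptor MYD88 at 0.32 ± 0.11 and LBP, which hands lipopolysaccharide to CD14, at 2.11 ± 0.63, and the block added the kinase IKBKB at 0.26 ± 0.14, the last 3 named after their values were seen. Between weeks 0 and 1 6 were higher and 14 lower, with a median of -0.14. The cows differed: the mean of the list in cow 1 was 0.27 at week 1, above its 0.07 at week 0 and 0.24 at week 3, while in the other cows it was lowest at week 1, between -0.43 and -0.26.

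CD14 had log2 values at week 0 of 0.16, -0.07, 0.07 and -0.72 in cows 1 to 4. At week 1 they were 0.74, -0.83, -0.81 and -0.99. At week 3 they were 0.97, 1.28, 1.71 and -0.13. As for CXCL5, cow 4 was the lowest cow at each week. After subtraction of each cow's mean, its correlation over the 12 arrays was 0.90 with CXCL5 and 0.91 with CXCL8. Without the subtraction these were 0.90 and 0.77.

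Among 20 measured of 24 other chemokines, 17 were higher and 3 lower at week 3 than on forage, the median being 0.05, and 14 were higher with array medians subtracted. In that comparison 1 passed at an unadjusted p under 0.05, or 2 with the block. That gene was CCL2, which attracts monocytes, at 1.55 ± 0.66 (SE; limma, adjusted p = 0.901), and the block added CXCL16 at 0.37 ± 0.21, named after its values were seen. CCL20, an epithelial chemokine for dendritic cells and lymphocytes, was at 1.54 ± 0.93 and was high on few arrays. At week 1 it was 3.42 in cow 1 and at week 3 it was 2.43 and 3.45 in cows 1 and 3, while the 9 other arrays lay between -0.28 and 0.08. CXCL10, CXCL12 and CXCL14, which do not attract neutrophils through CXCR2, were at 0.03 ± 0.03, 0.31 ± 0.28 and 0.15 ± 0.22.

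**Figure D3:**
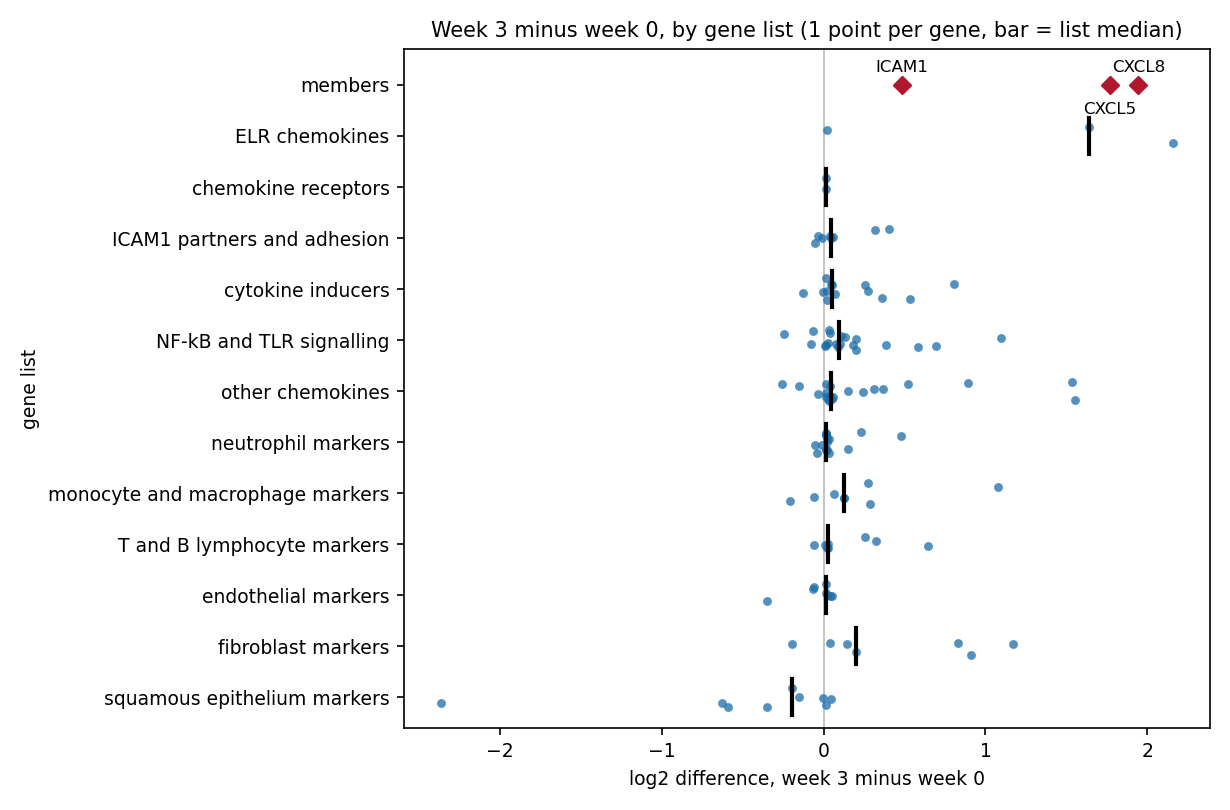
Log2 difference of week 3 minus week 0 (horizontal axis) for CXCL5, CXCL8 and ICAM1 (diamonds) and for the measured genes of 12 lists (1 point per gene, black bar at the list median). CXCL5 and CXCL8 lie at 1.77 and 1.95 beside GRO1 and CXCL2 at 2.16 and 1.64, while the neutrophil markers have a median of 0.02 and the epithelial markers one of -0.20.

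Markers of the cells that the papillae could hold were read beside these genes. In bulk tissue more cells of a type and more RNA per cell cannot be told apart. Of 27 neutrophil markers 17 were measured, 14 higher and 3 lower at week 3 than on forage, the median being 0.02, the same as over all genes. The counts turn to 7 and 9 higher when the arrays are quantile normalized or centred on their medians. None passed at an unadjusted p under 0.05, and 1 (NCF4, a subunit of the NADPH oxidase, at 0.23 ± 0.11) did so once the cow was a block. The mean of the list per array ran from -0.10 to 0.06 at week 0, from -0.05 to -0.02 at week 1 and from -0.05 to 0.16 at week 3.

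The granule genes MPO and ELANE were at 0.02 ± 0.04 and 0.01 ± 0.03 (SE), and S100A8, S100A9 and S100A12, abundant in neutrophils, at -0.04 ± 0.08, -0.01 ± 0.27 and -0.05 ± 0.07. Bulk values do not show whether neutrophils or other cells of the papillae carried the S100 transcripts. S100A9 was at -0.02, -1.42, -0.74 and -1.10 in cows 1 to 4 at week 1. Of the 17 markers, 13 ranged over less than 0.5 across the 12 arrays. On centred values it cannot be said which of them were at background, and what neutrophil number contributed to the chemokine values was not tested.

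Of 8 measured monocyte and macrophage markers 6 were higher at week 3 than on forage. Their median was 0.13, which was 1.15 without the 3 arrays with high hybridization controls and 0.00 after quantile normalization, when 4 were higher. The 1.15 compares all cows at week 3 with cows 3 and 4 alone on forage. The list means of those forage arrays, -0.22 and -1.24, were the lowest of week 0, so differences between cows enter. The mean of this list per array ran from -1.24 to 1.33 at week 0 and from -0.81 to 1.02 at week 3. At week 1 it ran from -0.89 to 0.25. For week 1 minus week 0 the list median was -0.46, but 0.11 without the 3 arrays, so its sign is unsettled. For week 3 minus week 1 it was 0.74, or 0.86 without them, and 7 of the 8 genes rose. With the block 3 genes fell in the former and 4 rose in the latter at an unadjusted p under 0.05. None passed the adjusted test. The part of these markers in the chemokine values was not tested. At week 3 against week 0 AIF1, a macrophage protein, was at 1.08 ± 0.49. CSF1R, the receptor for macrophage growth factor, was at 0.29 ± 0.24. CD68, MSR1 and CD86 were at -0.21 ± 0.50, 0.13 ± 0.19 and 0.07 ± 0.05. Of the T and B lymphocyte markers 7 of 8 were higher, or 6 under both other scalings, with a median of 0.03. CD3D and CD3E, T cell receptor subunits, were at 0.65 ± 0.48 and 0.32 ± 0.52, and CD4, CD8A and CD79A each differed by at most 0.03.

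Of 8 endothelial markers 5 were higher, with a median of 0.01, but 2 after quantile normalization (median -0.03) and 3 with array medians subtracted, so no direction holds. VWF, CDH5, KDR and TIE1 were at -0.06 ± 0.11, 0.02 ± 0.03, 0.04 ± 0.05 and 0.01 ± 0.03, and TEK at -0.35 ± 0.20. Of 7 fibroblast markers 6 were higher, with a median of 0.20, or 0.59 without the 3 arrays with high hybridization controls. In that list 3 passed at an unadjusted p under 0.05, all of them collagens: COL1A1 at 0.91 ± 0.19, COL1A2 at 1.17 ± 0.20 and COL3A1 at 0.83 ± 0.13 (limma, adjusted p = 0.597, 0.325 and 0.248). PDGFRA, DCN and LUM were at 0.20 ± 0.38, -0.19 ± 0.28 and 0.15 ± 0.14.

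Of 9 measured markers of squamous epithelium 2 were higher and 7 lower, with a median of -0.20, and 3 were lower at an unadjusted p under 0.05. SFN, a cell cycle protein of keratinocytes, was at -0.35 ± 0.12, and DSG1, a desmosomal cadherin of the upper layers, at -2.37 ± 0.72. The third, named like DSG1 after its values were seen, was DMKN, a secreted keratinocyte protein, at -0.63 ± 0.24. KRT5 and KRT14, keratins of the basal layer, were at -0.15 ± 0.11 and -0.20 ± 0.10, KRT10 at -0.01 ± 0.21 and KRT15 at 0.04 ± 0.40. The mean of the list per array was 0.10 to 0.39 at week 0 and -0.23 to -0.11 at week 3, with no overlap. This mean leans on DSG1, at -2.37 against the list median of -0.20. The separation is therefore not read as one of the whole list. At week 1 the mean of the epithelial list per array was -0.47 to 0.06, and 8 of 9 genes were lower than on forage, their median being -0.33. The lowest mean was that of cow 2, the array with the lowest CXCL8. COL1A1, COL1A2 and COL3A1 were at 0.67 ± 0.19, 0.72 ± 0.20 and 0.54 ± 0.13 at week 1 against week 0. The part of these markers in the chemokine values was not tested. Probe sets of 1 gene differed in sign between these weeks for S100A9, MSR1, VWF, CDH5 and KRT15.

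The genes with the profile most like each member were taken by the correlation over the 12 arrays after subtraction of each cow's mean. The arrays share cows and weeks, so these correlations are a description. For CXCL8 the most alike of the 9154 other genes was CXCL2, with an r of 0.98, followed by SAA3, an acute phase protein of epithelia, at 0.96, RAB19 at 0.96, NUCB2 at 0.94 and TMEM62 at 0.93. For CXCL5 they were SPATS2L at 0.98, KNG1 at 0.95, A2M, a protease inhibitor, at 0.95, TMEM62 at 0.95 and C1GALT1 at 0.94. For ICAM1 they were MRC2, a collagen-binding endocytic receptor, at 0.94, ACTN1, an actin crosslinker, at 0.94, PROCR at 0.93, GET1 at 0.92 and FBLIM1 at 0.91. Without the subtraction r was lower, 0.92 for CXCL2 with CXCL8 but 0.44 to 0.60 for the other genes named for CXCL8. It was 0.52 to 0.87 for those of CXCL5 and 0.65 to 0.86 for those of ICAM1. PROCR hardly varied, lying between -0.10 and 0.08 on the 12 arrays.

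CXCL5 and CXCL8 had an r of 0.90 with each other, each among the 17 genes most like the other. Without the subtraction it was 0.77. ICAM1 was not like either, with an r of 0.21 to CXCL5 and -0.06 to CXCL8. SAA3 differed by 1.44 between weeks 3 and 0 and by -0.50 between weeks 1 and 0, the same order of weeks as CXCL8. MRC2 and ACTN1, like ICAM1, were higher at week 1 than at week 0, by 0.45 and 0.50, and then differed by -0.14 and -0.16 between weeks 3 and 1.

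**Figure D4:**
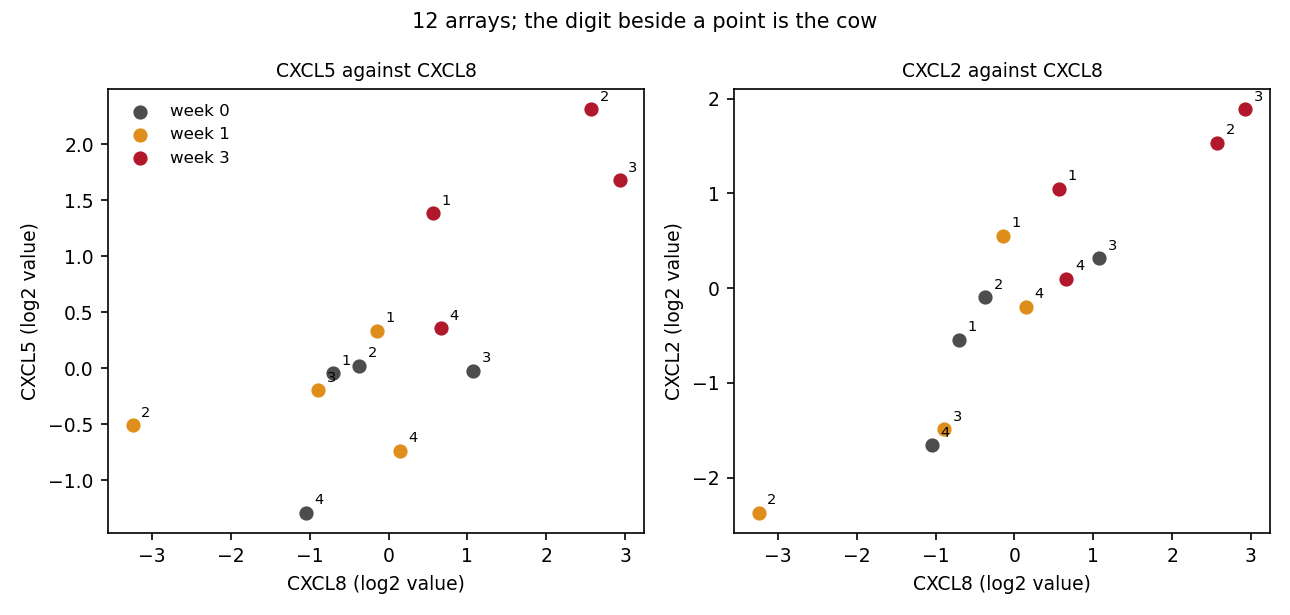
Log2 values of CXCL5 and of CXCL2 (vertical axes) against those of CXCL8 (horizontal axes) on the 12 arrays, with weeks in colours and the cow as a digit. The week 3 arrays of cows 2 and 3 lie at the upper right, while those of cows 1 and 4 lie nearer the earlier weeks and cow 3 at week 0 exceeds cow 4 at week 3 for CXCL8 and CXCL2. Cow 2 at week 1 is lowest for CXCL8 at -3.25 and for CXCL2 at -2.37, and cow 4 at week 0 is lowest for CXCL5 at -1.29.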

How the data were processed

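Gene expression was measured in 12 samples of bovine rumen papillae, 4 cows at each of 3 weeks. The labels' protocols describe Affymetrix arrays hybridised with biotinylated cRNA, prepared from 10 µg of total RNA per sample. Per the submitters' processing notes the authors used GCRMA, a background correction and normalization of probe intensities. No version of it is stated in the sources used here. The deposited values are log2 values, and each probe set had been centred so that its median across arrays is 0. The log base is not stated and was taken as 2. The number of arrays limits the precision.

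All 24016 probe sets other than 112 AFFX controls were fitted with limma 3.58.1 in R 4.3.3 (lmFit, eBayes, a mean per week, two-sided, Benjamini-Hochberg), and probe sets were called at an adjusted p under 0.05. The steps were tested on simulated data. Of the probe sets, 13292 named 1 gene, 86 several and 10638 none. A gene with several probe sets was represented by the one with the largest SD over the 12 arrays. Current symbols came from the gene table of ARS-UCD2.0, matched for 13263 probe sets by gene ID and 2 by accession. Replicates are separate animals sampled repeatedly. After removal of weekly means, arrays of the same cow correlated at 0.32 to 0.69 over 12 pairs and arrays of different cows at -0.57 to 0.06, so the cow was also fitted as a block.

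The members and the 12 gene lists (163 entries, 123 measured genes) were chosen with earlier results of these data known. Named were all ELR, receptor and adhesion genes, the first 5 measured genes of each other list, and the 5 genes most like each member. Other named genes were chosen after their values were seen. Errors are model standard errors of the fit without the cow, unless called SD or given for another fit. This holds also after ± for genes named because they passed with the block. Alternatives were the block, other scalings, a variance filter, weekly medians and arrays or cows left out.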

Additional observations from a re-analysis of the deposited data

Results flagged for a closer look

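Among 27 weekly groups of 4 arrays examined for the members and related ELR chemokine probe sets, 3 held an array far from the other 3, by Dixon's criterion. Chance flags about 1 in 20 groups. For CXCL5, cow 4 at week 0 was at -1.29, while the other cows lay between -0.05 and 0.02. Without that array the week 3 minus week 0 difference of CXCL5 was 1.45 in place of 1.77, and the week 1 minus week 0 difference turned to -0.26. For GRO1, cow 1 at week 1 was at 4.22 on 1 probe set and at 3.98 on another, while the other cows lay between -0.09 and 0.06 on both. The same array had high hybridization controls (0.48), was at 3.42 for CCL20 and was at 0.33 for CXCL5. The part of the controls in these values was not tested.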

How the results depend on the processing

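The week 3 minus week 0 difference kept its sign under all 23 alternatives for CXCL5 (1.45 to 2.13), CXCL8 (1.53 to 2.39) and ICAM1 (0.32 to 0.64). So did week 3 minus week 1 for CXCL5 (1.34 to 2.07), CXCL8 (1.68 to 3.45) and ICAM1 (-0.22 to -0.02), and week 1 minus week 0 for ICAM1 (0.45 to 0.76). Week 1 minus week 0 had no settled sign for CXCL5 (-0.32 to 0.25) or CXCL8 (-1.43 to 0.02). CXCL8 week 3 minus week 1 was 1.68 without cow 2, and CXCL8 week 1 minus week 0 was 0.02 with weekly medians. Some alternatives could not change a difference, such as the block on all arrays or leaving out an array of a week not compared. The members were chosen by their week differences, so kept signs follow in part from that choice.

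Counts of probe sets called by limma were 0 in each comparison, with 1237, 933 and 1172 at an unadjusted p under 0.05 for weeks 1 minus 0, 3 minus 0 and 3 minus 1. For week 1 minus week 0 the count was 2 among the 60% of probe sets with the largest SD, 2 with the cow as a replicate block, 1 with that block and without the 3 arrays with high hybridization controls, 5 without those arrays, and 0 to 45 with an array or cow left out. For week 3 minus week 0 it was 2 after quantile normalization, 6 without the 3 arrays, and 0 to 2 with an array or cow left out. For week 3 minus week 1 it was 12 without the 3 arrays, 1 with the cow as a block on these weeks alone, and 0 to 38 with an array or cow left out. The 45 and the 38 were both without week 1 of cow 1. The causes were not tested. Fits on the 2 weeks compared alone were added after seeing the data, as were the list counts without the 3 arrays or under other scalings and the alternatives for GRO1, CXCL2 and CXCL3. The mean over a gene's probe sets gave no other value because each member has 1. With 4 cows, and values that hold no absolute level, small differences and absent transcripts cannot be resolved.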
